A study of Mus musculus with 12 samples.

Results

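A set of 48 transcripts was close to absent from sorted round spermatids (RS) and yet counted in elongated spermatids (ES). The members were every annotated transcript contig, that is, 1 reference transcript to which reads were assigned, with at most 15 counts summed over the 6 RS libraries and at least 50 counts summed over the 6 ES libraries. They were 48 of 11517 transcript contigs, and 3 contigs named for repeats that met the same limits were not included. The members were thus chosen by their counts in RS and ES, and every difference between the stages given here is a description without a test.

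The libraries were made by nanopore direct RNA sequencing, which reads native poly(A) RNA 1 molecule at a time, of spermatids from adult mouse testis. Tent5c wt/wt mice were compared with Tent5c dcat/dcat mice, which are homozygous for a TENT5C poly(A) polymerase without catalytic activity. The 4 groups (RS wt/wt, RS dcat/dcat, ES wt/wt and ES dcat/dcat) had 3 libraries each, and each library pooled RNA from 3 mice. The study reports that RS and ES were sorted from the same mice, so the RS and ES libraries of a genotype are not independent. All groups shared the same preparation, in which a collagenase digest and a wash of the tubules served to remove interstitial cells. Spermatids were then gated on Hoechst fluorescence, propidium iodide exclusion and light scatter. The dcat allele is carried in every cell of the animal, so Leydig and Sertoli cells of dcat/dcat mice carry it too.

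Spermatids build the sperm head and tail from RNAs that are largely made in RS, stored, and translated as the spermatids elongate. Transcription stops early in elongation. An RNA that appears only in ES can therefore be a late transcript or a late-processed isoform, or it can belong to another cell. Sertoli cells surround the elongating spermatids and take up their shed cytoplasm, Leydig cells make androgens between the tubules, and testicular macrophages lie beside them and present antigen on MHC class II. The X chromosome is silenced during meiosis and stays largely repressed in spermatids, and several X-linked housekeeping genes have autosomal copies that are used in male germ cells.

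Marker genes were read first. The 51 contigs of a late spermatid list (protamines, transition proteins, outer dense fibre and sheath genes) summed to between 245365 and 316470 CPM (counts scaled to 1000000 per library, with TMM effective library sizes) in the ES libraries and to between 26090 and 51024 CPM in the RS libraries. The 23 contigs of a spermatocyte list ran the other way, at 943 to 1213 CPM in RS and 556 to 717 CPM in ES. Somatic lists were present in both stages and higher in ES: the 10 Leydig contigs summed to 24.9 to 65.6 CPM in RS and 297 to 1077 CPM in ES, the 13 Sertoli contigs to 28.8 to 97.0 and 439 to 884 CPM, and the 6 macrophage contigs to 12.8 to 27.2 and 206 to 332 CPM. No gene of the endothelial or erythroid lists was in the count table. Library totals ran from 337287 to 1359427 counts, so a count of 0 in an RS library allows up to 3 counts, or 1.77 to 3.93 CPM, by counting error alone.

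The 48 members held 510 RS counts and 3677 ES counts. They took 0.00435 to 0.0135% of all counts in the RS libraries and 0.0675 to 0.147% in the ES libraries. Of their 288 RS values, 78 were 0 and the highest was 7 counts. In ES, 45 of the 48 were counted in every library, and the 3 exceptions each missed 1 library. The ratio of the ES to the RS level, after TMM scaling and with the libraries of a stage pooled, ran from 8.51 to 112 with a median of 15.9, against a median of 0.85 over 11507 transcript contigs counted in both stages. Scaling by library totals in place of TMM lowered each ratio 1.62-fold, to between 5.25 and 68.9. A ratio of at least 8.51 was also reached by 140 contigs outside the set, which had more than 15 RS counts or fewer than 50 ES counts.

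**Figure D1:**
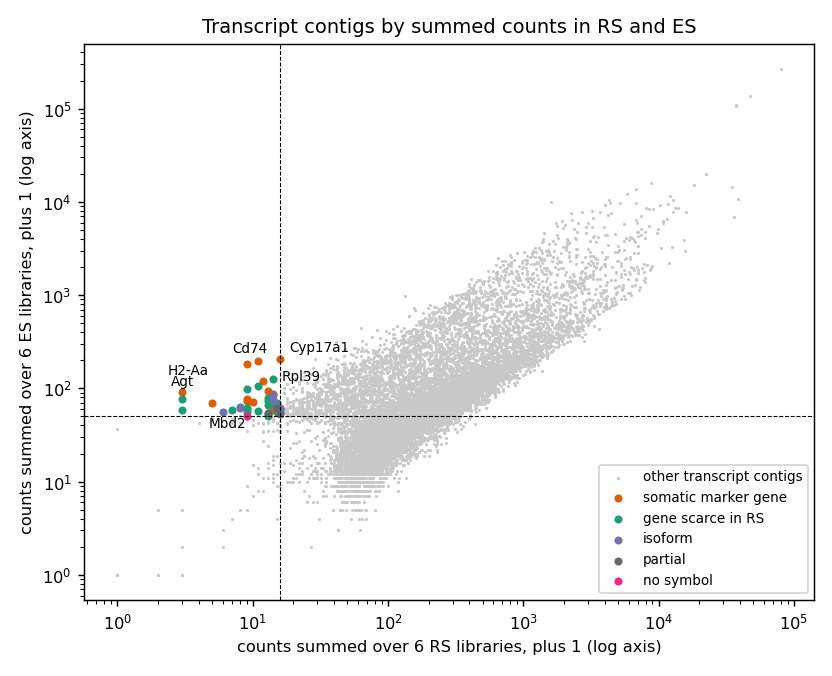
Counts summed over the 6 RS libraries (x axis) and the 6 ES libraries (y axis), each plus 1 and on a log axis, for the 11517 transcript contigs. Coloured points are the 48 members by class, grey points are all other contigs, and the dashed lines mark 15 RS counts and 50 ES counts. The members lie in the upper left corner, and the ones with the most ES counts are Cyp17a1, Fabp3 and Cd74.

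The limits on counts were crossed by small steps. Just inside the RS limit, at 15 counts, lay Cyp17a1 with 204 ES counts and Vsig1 and Klc3 with 60 each. Just outside it, at 16 counts, lay Cited1 with 101 ES counts, and Tmod4 and Zfp706 with 89 each. At the ES limit the members with the fewest counts were Gstm7 and the contig without a symbol with 50 each, and Mrpl49 and a second Tmod4 transcript with 52 each, whereas Tubb5, Rnf19b and Gm14226 had 49 and stayed outside.

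The members were sorted into classes by gene lists and by the counts of other transcripts of the same gene. Genes on a somatic marker list gave 14 members (29.2%). Another 20 members (41.7%) belonged to no such list and came from genes whose contigs together had at most 15 RS counts. In 10 members (20.8%) the gene's other contigs held at least 50 RS counts, so that a single isoform, and not the gene, was scarce in RS. For 3 members the other contigs held 16 to 49 RS counts, and 1 contig had no gene symbol in the annotation used here. No member was on the late spermatid list: its 51 contigs had a median of 1374 RS counts, and the lowest, an Oaz3 contig, had 34 in RS and 155 in ES. When counts were summed by gene symbol, 30 genes met the limits, and all 30 were genes of the set.

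The Leydig list gave 7 members from 6 genes, of 8 listed genes in the table. Cyp17a1, the enzyme that makes androgen precursors from pregnenolone and progesterone, had 204 counts in ES and 15 in RS. In the ES wt/wt libraries it stood at 27.5, 70.4 and 70.6 CPM and in the ES dcat/dcat libraries at 20.9, 77.4 and 159 CPM. Both genotypes therefore held a low library at number 1, and the highest value came from ES dcat/dcat 3. Fabp3, a cytosolic fatty acid carrier also found in heart and muscle, had 33.8, 60.9 and 117 CPM in ES wt/wt and 13.9, 44.9 and 155 CPM in ES dcat/dcat. Cyp11a1, which cleaves the cholesterol side chain in the first step of steroid synthesis, had 8.45, 24.7 and 35.3 CPM in ES wt/wt and 11.6, 12.5 and 65.8 CPM in ES dcat/dcat. The SD of the 3 ES dcat/dcat libraries was 69.3, 74.3 and 31.1 CPM for Cyp17a1, Fabp3 and Cyp11a1, in each case wider than the distance between the genotype means.

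The remaining Leydig-list members repeated that spread to different degrees. Ptgds, the lipocalin-type prostaglandin D synthase, had 35.9, 22.8 and 67.1 CPM in ES wt/wt and 27.8, 17.5 and 86.1 CPM in ES dcat/dcat. Aldh1a1, which oxidizes retinaldehyde to retinoic acid, gave 2 members with the same annotated 3′ end to within 3 bases. They had 92 and 70 ES counts and 12 and 9 RS counts. The first was highest in ES wt/wt 3, at 56.5 CPM, and the second in ES dcat/dcat 3, at 37.1 CPM. Mgst1, a membrane glutathione transferase of many tissues, was the least steep, with 65 ES and 13 RS counts. Of the Leydig list, Insl3 was outside the set because it had 132 RS counts beside 983 in ES, and the 2 contigs of Scarb1, a receptor for high-density lipoprotein, had 38 and 56 RS counts beside 41 and 37 in ES.

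The macrophage list gave 3 members, all of the MHC class II pathway, of 6 listed genes in the table. H2-Aa, the alpha chain of the I-A molecule, had 2 counts in the 6 RS libraries together and 91 in ES, which gave the steepest ratio of the set (112, with a 95% exact interval for counting error of 30.1 to 937). Its ES levels were 59.2, 24.7 and 17.7 CPM in wt/wt and 48.7, 32.5 and 18.6 CPM in dcat/dcat, so that library 1 was the highest in both genotypes. Cd74, the invariant chain that escorts class II molecules, had 69.7, 49.5 and 91.8 CPM in ES wt/wt and 53.3, 122 and 40.5 CPM in ES dcat/dcat. H2-Eb1, the beta chain of the I-E molecule, was the most even, at 27.5, 26.6 and 35.3 CPM in ES wt/wt and 18.5, 24.97 and 21.9 CPM in ES dcat/dcat. The order of libraries for H2-Aa differed from that for Cyp17a1, which was low in library 1 of both genotypes. Outside the set, the class II gene H2-Ab1 had 31 RS and 95 ES counts, and C1qb, a complement subunit made by macrophages, had 41 and 129.

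Both H2 members start within the class II region of chromosome 17, and their promoters are shown because class II genes are known for a shared upstream box read by nuclear factor Y. The letters GATTGG, which hold an inverted CCAAT, and their reverse complement CCAATC are in capitals. Windows run from 250 bases before to 50 after the RefSeq start (GRCm38.p6), H2-Aa at chr17:34287774-34288073 on the minus strand and H2-Eb1 at chr17:34305617-34305916 on the plus strand.
H2-Aa: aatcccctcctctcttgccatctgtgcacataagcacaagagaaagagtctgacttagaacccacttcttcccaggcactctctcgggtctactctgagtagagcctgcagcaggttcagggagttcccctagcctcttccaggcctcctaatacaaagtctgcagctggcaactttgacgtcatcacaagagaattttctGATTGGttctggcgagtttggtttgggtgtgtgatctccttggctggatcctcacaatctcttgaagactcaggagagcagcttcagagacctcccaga
H2-Eb1: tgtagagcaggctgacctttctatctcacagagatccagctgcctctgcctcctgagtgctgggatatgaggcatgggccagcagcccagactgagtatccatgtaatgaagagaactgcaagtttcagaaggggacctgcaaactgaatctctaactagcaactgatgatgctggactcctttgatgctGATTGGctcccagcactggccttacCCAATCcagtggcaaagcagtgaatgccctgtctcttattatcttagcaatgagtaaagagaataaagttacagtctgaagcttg
The match on the gene's own strand began 49 bases before the start in H2-Aa and 60 bases before it in H2-Eb1, and H2-Eb1 held CCAATC as well, 35 bases before the start. Either orientation was present in 16.1% of all 32851 promoter windows. Windows were found for 36 gene symbols of the set, and 11 of their 47 windows held a match, a count that is given without a test. A match describes letters, not binding.

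The Sertoli list gave 3 members of 11 listed genes in the table. Cldn11, the claudin of Sertoli cell tight junctions in the blood-testis barrier, had 72 ES and 8 RS counts, and its levels were 19.0, 22.8 and 21.2 CPM in ES wt/wt and 27.8, 39.9 and 28.7 CPM in ES dcat/dcat. The dcat/dcat libraries were all above the wt/wt libraries, by 0.60 ± 0.53 on the log2 scale (SE of the fit, n = 3 and 3), a difference close to its error. Cst12, a cystatin-type protease inhibitor, had 87 ES and 13 RS counts and overlapped between genotypes (25.4 ± 11.2 CPM in ES wt/wt, 38.2 ± 6.76 CPM in ES dcat/dcat, SD, n = 3). Gstm6, a cytosolic glutathione transferase, had 65 ES and 13 RS counts and ran from 7.06 to 38.8 CPM over the ES libraries. Other Sertoli genes missed the RS limit while being counted more in ES, among them Defb19 (82 RS and 425 ES counts), Clu (40 and 205) and Aard (47 and 264), whereas Dhh had 109 in RS and 32 in ES.

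The stromal list gave 1 member, Sparc, a matrix-binding glycoprotein of connective tissue, with 13 RS and 58 ES counts and 15.2 to 27.5 CPM over the ES libraries. Its second contig had 8 RS counts and 47 in ES, just short of the limit. The 1 peritubular myoid gene in the table, Actg2, was outside the set, since its 2 contigs had 809 and 170 RS counts.

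**Figure D2:**
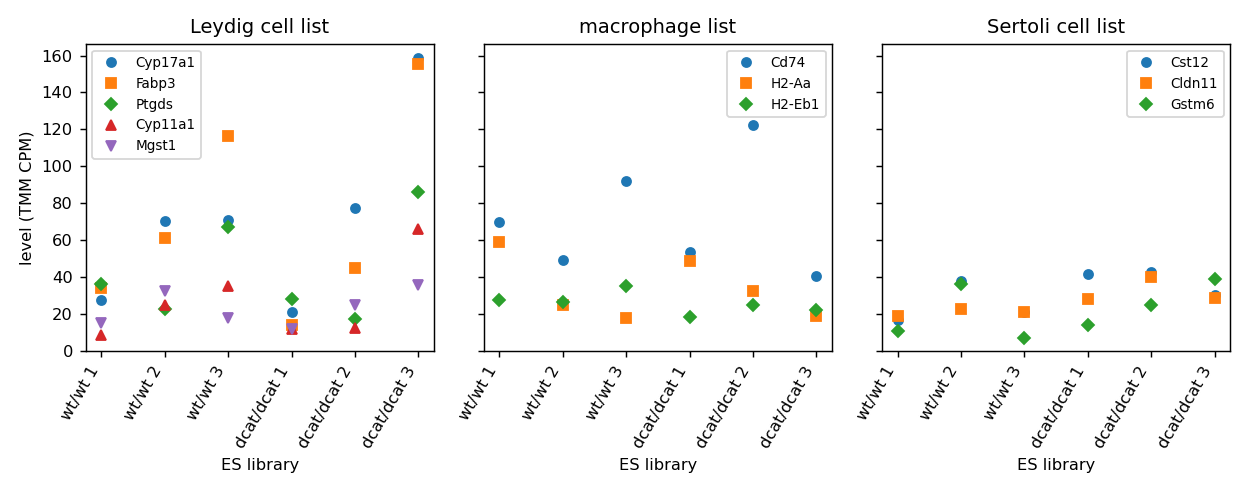
Levels of selected marker list members (y axis, CPM on TMM effective library sizes) in each of the 6 ES libraries (x axis). Each gene has 1 marker shape. Of the Leydig list, Cyp17a1 (159 CPM), Fabp3 (155 CPM), Ptgds, Cyp11a1 and Mgst1 are highest in dcat/dcat 3. H2-Aa and Cd74 are among their lowest values there (18.6 and 40.5 CPM). Aldh1a1 is not drawn. Its member with 92 ES counts peaks elsewhere, reaching 56.5 CPM in library wt/wt 3 against 43.9 CPM for dcat/dcat 3. The Aldh1a1 member with 70 ES counts is highest in dcat/dcat 3.

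By function lists, members of the set covered 2 of 12 contigs for steroid and cholesterol handling (Cyp17a1 and Cyp11a1), 3 of 9 for antigen presentation and complement (the class II genes), 2 of 16 for iron, metal and antioxidant genes (Mgst1 and Gstm6), 2 of 16 for epithelial cytoskeleton and junctions (Cldn11 and Vim), 1 of 4 for secreted hormones and binding proteins (Ptgds) and 1 of 3 for matrix (Sparc). No lysosomal protease contig, of 6 in the table, was a member. In these sorted pools, fewer cells of a type and less RNA per cell cannot be told apart, and whether the marker RNAs came from whole somatic cells, from fragments or free RNA, or from spermatids was not tested.

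The class of 20 genes scarce in RS was led by ribosomal proteins. Rpl39, a component of the ribosomal exit tunnel, had 125 ES and 13 RS counts. Its ES levels were 33.8, 41.8 and 49.4 CPM in wt/wt and 18.5, 79.9 and 55.7 CPM in dcat/dcat. Rps4x, a small-subunit protein, was the steadier, at 33.8, 45.7 and 31.8 CPM in ES wt/wt and 27.8, 42.4 and 43.9 CPM in ES dcat/dcat. Rpl10, a large-subunit protein needed for subunit joining, had 35.9, 26.6 and 49.4 CPM in ES wt/wt and 16.2, 17.5 and 21.9 CPM in ES dcat/dcat.

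All 3 ribosomal genes lie on the X chromosome, and by symbol they were the only X-linked contigs among 148 cytosolic ribosomal protein contigs in the table. None of the autosomal ones fell to 15 RS counts, the lowest having 18 and the median 649. Rpl10-ps3, a copy of Rpl10 on chromosome 9 that the symbols left out of the 148, was a member with 8 RS counts. More broadly, 6 of the 48 members (12.5%) were X-linked, against 224 of 11517 transcript contigs (1.94%): Rpl39, Rps4x, Rpl10, Gm3880, Bex4 and Vsig1. The X-linked count was made after the members had been listed, and it has no test because the same RS counts chose them.

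Autosomal relatives of the 3 genes were abundant in RS, and they were looked up after the members were known. Rpl39l, on chromosome 16, had 10379 RS and 3211 ES counts on its main contig, at 1331 to 1809 CPM in the RS libraries and 870 to 1345 CPM in the ES libraries, a pooled ES to RS ratio of 0.76 (0.73 to 0.79) beside the median of 0.85 over all contigs. Its second contig had 633 and 241 counts and a ratio of 0.93 (0.80 to 1.09), with no decrease beyond counting error after TMM scaling. Scaling by library totals lowers each ratio 1.62-fold, so whether this contig decreased depends on the scaling. Rpl10l, on chromosome 12, had 3932 and 738 counts, and Rps4l, on chromosome 6, had 1935 and 421. Levels of Rpl10l were 553 to 668 CPM in RS and 219 to 413 CPM in ES, and those of Rps4l 219 to 357 and 128 to 208 CPM. Another pair was autosomal on both sides: Slc25a4, the ADP/ATP carrier of heart and muscle mitochondria, was a member with 13 RS and 69 ES counts, and Slc25a31, the carrier of germ cells, had 224 and 45.

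**Figure D3:**
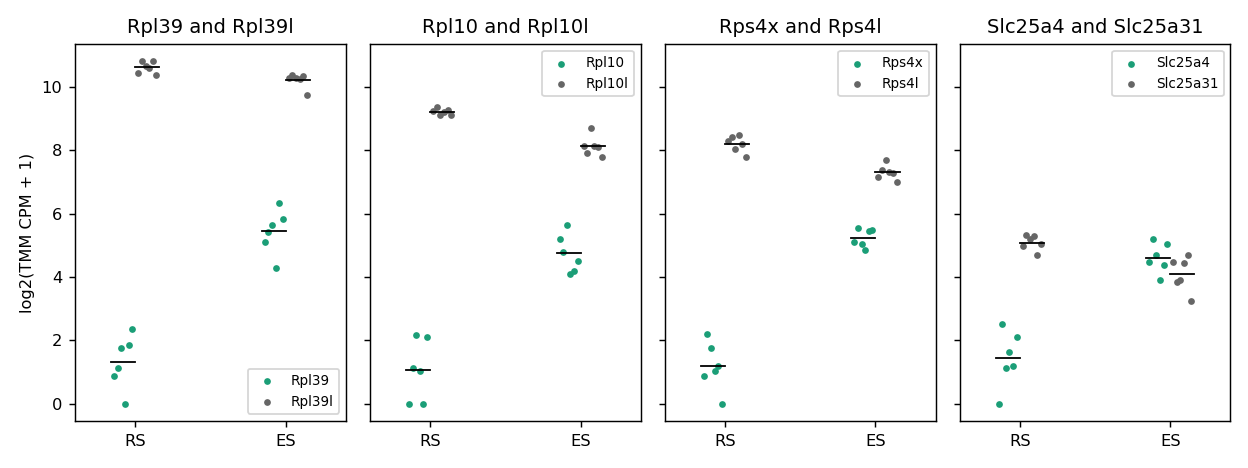
Levels as log2(CPM + 1) on TMM effective library sizes (y axis) of 4 members (green) and their relatives (grey) in the 6 RS and 6 ES libraries (x axis). Points are libraries of both genotypes and bars are means, and for Rpl39l the contig with the most counts is drawn. Each member is near the floor in RS, where each relative is well above it.

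The coding sequences of Rpl39 and Rpl39l are shown because reads of the pair have to be told apart for these counts to hold. Both are 156 bases long, from GENCODE vM21 transcripts on GRCm38 (Rpl39 within chrX:37082520-37085402 on the minus strand, Rpl39l within chr16:10170228-10174911 on the plus strand), and the 23 bases that differ are in capitals.
Rpl39: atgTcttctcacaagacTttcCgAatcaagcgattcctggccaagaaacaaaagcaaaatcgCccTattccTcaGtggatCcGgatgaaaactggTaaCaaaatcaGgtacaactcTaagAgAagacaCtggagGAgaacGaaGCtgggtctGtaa
Rpl39l: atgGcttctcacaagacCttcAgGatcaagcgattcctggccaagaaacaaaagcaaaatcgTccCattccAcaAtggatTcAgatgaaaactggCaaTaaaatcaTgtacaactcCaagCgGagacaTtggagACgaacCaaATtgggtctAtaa
They were 85.3% identical, and the same comparison gave 84.8% for Rpl10 and Rpl10l and 62.1% for Slc25a4 and Slc25a31. Processed copies were closer than these relatives. Rpl10-ps3, itself a member with 8 RS and 55 ES counts, matched Rpl10 at 100% over 96.4% of its length, so counts of that pair are uncertain. Unlisted copies of Rps4x, among them Gm13680, matched it at up to 98.5% over 81.2% of its length.

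Gm3880 belonged to a cluster of short X-linked genes just past the RS limit. It had 12 RS and 78 ES counts, and its ES levels were even, from 23.2 to 35.3 CPM. The neighbouring family members Gm9112, 1700011M02Rik and 1700018G05Rik had 23, 23 and 20 RS counts and 136, 149 and 128 ES counts. Gm3880 matched Gm9112 at 91.0% over 81.0% of its length, so reads could be split between them. Bex4, a small X-linked protein of the brain-expressed family, had 14 RS and 68 ES counts and matched unlisted copies at up to 98.9% over 42.7% of its length.

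Several other genes of the class are best known from cells other than spermatids, although none was on a marker list here. Agt, the precursor of angiotensin peptides, had 2 RS counts against 76 in ES, a ratio of 93.3 (24.96 to 785), with 25.4, 22.8 and 56.5 CPM in ES wt/wt and 9.27, 19.97 and 40.5 CPM in ES dcat/dcat. Ccl4, a chemokine of activated leukocytes, had 2 and 58 counts, a ratio of 71.2 (18.8 to 602), and 9.27 to 42.4 CPM over the ES libraries. Fos, the immediate-early transcription factor, had 8 and 98 counts. It stood at 35.9, 30.4 and 28.2 CPM in ES wt/wt and at 16.2, 52.4 and 48.97 CPM in ES dcat/dcat. Vim, the intermediate filament of mesenchymal and Sertoli cells, had 8 and 59 counts, and its highest ES level was 33.8 CPM in ES wt/wt 1.

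The other members of the class have varied roles. Acsbg1, a long-chain acyl-CoA synthetase found in steroidogenic tissue and brain, had 7 RS and 62 ES counts, at 4.23, 24.7 and 35.3 CPM in ES wt/wt and 6.96, 24.97 and 40.5 CPM in ES dcat/dcat. Akr1cl, an aldo-keto reductase, was likewise lowest in library 1 of each genotype and highest in ES dcat/dcat 3, at 8.45, 32.3 and 21.2 CPM in ES wt/wt and 6.96, 19.97 and 37.1 CPM in ES dcat/dcat. Txn1, the cytosolic thioredoxin, ran from 3.53 to 37.5 CPM and Gstm7, a glutathione transferase, from 10.6 to 37.5 CPM over the ES libraries. Moxd1, a copper monooxygenase relative, Mrpl49, a protein of the mitochondrial ribosome, and Nenf, a secreted haem-binding factor, had 55, 52 and 68 ES counts and 14, 12 and 13 RS counts. Defb45, a beta-defensin, had 10 RS and 56 ES counts. Gm49425 had 12 and 66, and matched the hair keratin gene Krt87 at 96.2% over 98.6% of its length.

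Isoforms scarce in RS came from genes that RS do transcribe. In the 10 genes the other contigs were themselves 3.14 to 6.98 times higher in ES than in RS, and the member isoform rose more steeply in each. Its share of the gene's counts had a median of 2.27% in RS and 6.97% in ES and was higher in ES in 10 of 10, which the rule favours because it sets the RS count low. Ends here and below are those of the annotated transcripts, and where the reads themselves ended was not examined. Relative to the contig of the same gene with the most RS counts, 3 isoforms ended at the same 3′ end within 25 bases, 5 ended upstream and 2 downstream. Most of these isoforms thus differed in their annotated 3′ end.

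Mbd2, a methyl-CpG binding repressor, had the largest relative shift of the 10. A transcript annotated as a retained intron had 5 RS and 55 ES counts, 1.27% (95% exact interval 0.413 to 2.94) of the gene's 394 RS counts and 9.96% (7.59 to 12.8) of its 552 ES counts. It held 3 exons and ended 354 bases upstream of the main transcript. Its ES levels were uneven, at 4.23, 32.3 and 14.1 CPM in wt/wt and 6.96, 27.5 and 30.4 CPM in dcat/dcat, with number 1 lowest in each genotype. Selenok, an ER membrane selenoprotein, was represented by a transcript annotated for nonsense-mediated decay that ended 822 bases upstream, at 13 RS and 84 ES counts, or 1.89% and 5.31% of the gene. Eif1, which governs start codon choice, had 13 and 74 counts on a transcript of 2 exons ending 347 bases upstream, only 0.191% and 0.751% of a very abundant gene.

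Shorter annotated 3′ ends also belonged to Lypla1, an acyl-protein thioesterase, and to 1700031M16Rik. The member isoform of Lypla1 ended 1387 bases upstream and held 5.40% of RS and 8.30% of ES counts. That of 1700031M16Rik ended 884 bases upstream and held 1.49% and 2.35%. Longer annotated ends belonged to Glrx2, the mitochondrial glutaredoxin (2900 bases downstream, 2.65% and 5.65%). They also belonged to Vsig1, an X-linked junction protein of the immunoglobulin family (1239 bases downstream, 15.96% and 34.7%). Klc3, a kinesin light chain of the sperm midpiece, and Eif4g1, the scaffold of the cap-binding complex, shared the 3′ end of the contig with the most RS counts. They differed further upstream, by 4226 and 23 bases at the annotated start. For Eif4g1 that contig held only 22 of the gene's 140 RS counts, and 52 ES counts beside 55 on the member. The shares of the members were 10.8% and 19.5% for Klc3 and 10.7% and 13.5% for Eif4g1. Direct RNA reads start at the 3′ end and often stop short, so reads of isoforms that differ only near the start are assigned with less certainty. The Fam166a member is a 2-exon fragment of 254 bases whose sequence matched Tubb4b, an overlapping gene, at 100% over 47.6% of its length, and its 7 RS and 60 ES counts cannot be assigned to either gene with confidence.

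**Figure D4:**
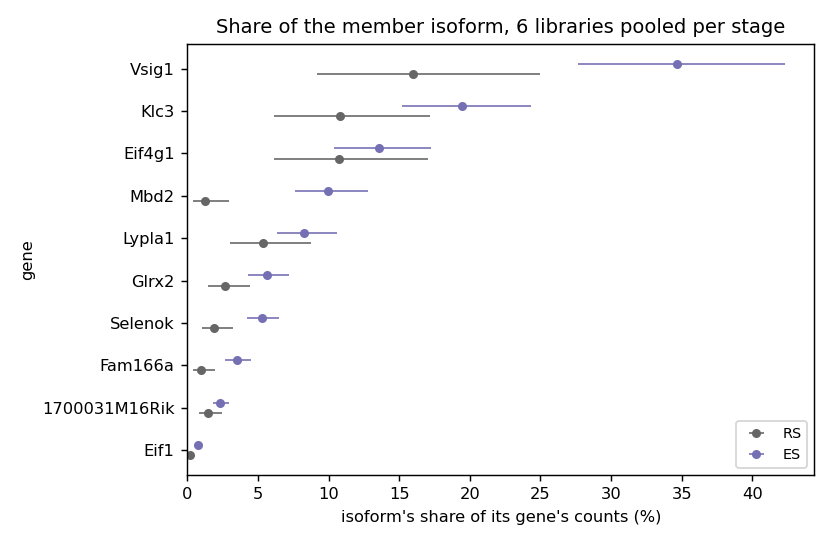
Share of the gene's counts held by each of the 10 member isoforms (x axis, percent, libraries of a stage pooled) in RS (grey) and ES (purple), with 95% exact binomial intervals for counting error. The ES share is the higher for every gene, from 0.751% for Eif1 to 34.7% for Vsig1. The RS and ES intervals overlap for Klc3, Eif4g1, Lypla1, 1700031M16Rik and Glrx2.

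In the 3 genes with 16 to 49 RS counts on other contigs, the whole gene was scarce in RS. Epb41l3, a membrane skeleton protein, had 38 RS and 121 ES counts over its contigs, Mgat4e, an N-glycan branching enzyme relative, 48 and 180, and Tmod4, a tropomodulin, 31 and 141. The member held 36.8%, 25% and 48.4% of the RS counts of its gene and 49.6%, 30% and 36.9% of the ES counts, and the intervals of the RS and ES shares overlapped in each.

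As transcripts the members were shorter than the rest. Annotated length had a median of 1224 bases over the 47 members found in the annotation, against 2192 over 11348 transcript contigs, and exon number a median of 6 against 8. Protein-coding transcripts were 91.5% of members and 85.5% of contigs. The gene had no other contig in the table for 63.8% of members and 38.9% of contigs. The part that low gene counts play in this was not tested. With a 90% identity and 40% coverage minimum, 9 of 47 members matched a transcript of another gene, and for 4 of them that transcript was in the table.

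Across the 6 ES libraries the members followed different libraries. Likeness was measured as the Pearson r of log2(CPM + 1) with the mean of list contigs that had at least 100 ES counts, leaving out the gene itself. With 6 libraries that differ in depth this is a description, without a test. The Leydig index had 4 contigs, Insl3, Cyp17a1, Fabp3 and Ptgds, and 3 for a gene that is itself in it. All but Insl3 are members, so likeness of Leydig-list members to this index is largely likeness of members to each other. Of the 6 members with at least 100 ES counts, r with the Leydig index was 0.98 for Fabp3, 0.76 for Cyp17a1 and 0.60 for Ptgds. It was 0.59 for Rpl39, 0.51 for Rps4x and -0.21 for Cd74. With all members included, a choice made after seeing the data, the 7 Leydig-list contigs had r between 0.60 and 0.98 with that index. With the late spermatid index they had r between 0.02 and 0.97. Cyp17a1 and Mgst1 had the higher r with the late spermatid index (0.85 and 0.97), and the other Leydig-list contigs with the Leydig index. Cldn11, Cst12 and Gstm6 had 0.76, 0.75 and 0.92 with the Sertoli index and -0.13, -0.28 and 0.27 with the Leydig index. Their r with the late spermatid index was 0.47, 0.43 and 0.91. H2-Aa had -0.88 and H2-Eb1 0.44 with the Leydig index. These values rest on 5 to 28 and 8 to 14 counts per ES library, and whether the 2 class II genes differ in pattern beyond counting error was not tested.

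Among members on no marker list, the highest r with the Leydig index belonged to Agt (0.90) and Akr1cl (0.84), followed by Slc25a4, Acsbg1, Rpl10-ps3 and Mgat4e, each at 0.80. Akr1cl and Rpl10-ps3 each had a higher r, 0.86, with the late spermatid index. Agt, Slc25a4, Acsbg1 and Mgat4e had 0.25, 0.72, 0.69 and 0.56 with it. The isoform class had medians of 0.49 with the Leydig, 0.65 with the Sertoli and 0.76 with the late spermatid index. Rps4x (0.95), Glrx2 (0.94) and Mbd2 (0.90) were the unlisted members closest to the late spermatid index, and Mgst1, of the Leydig list, had 0.97 with it. The Sertoli and late spermatid indices had r = 0.90 with each other over these libraries, so likeness to either cannot be told apart here, whereas the Leydig index had 0.22 with the Sertoli and 0.57 with the late spermatid index.

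The genotype comparison within ES did not enter the rule and asked whether loss of TENT5C activity moved these RNAs. Of the 48 members, 46 passed the filter of at least 10 counts in at least 2 libraries of 1 group, which they could pass only through ES, and Akr1cl and Rpl10-ps3 did not. No member, and none of the 11831 contigs tested (0%), passed an adjusted p of 0.05 by edgeR's quasi-likelihood test with Benjamini-Hochberg adjustment. Without adjustment, 356 contigs (3.01%) had p under 0.05, with 1.56% higher and 1.45% lower in dcat/dcat, and 1 of these was a member, higher in dcat/dcat. With 3 pools a side, the test reached standard errors of 0.35 to 0.69 on the log2 scale for the members. Differences of that size, and larger ones up to 1.26 for Epb41l3, did not pass at this depth.

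The member with an unadjusted p under 0.05 was the Lypla1 isoform. It had 10.6, 13.3 and 17.7 CPM in ES wt/wt and 23.2, 37.5 and 28.7 CPM in ES dcat/dcat, without overlap. The log2 difference was 1.13 ± 0.42 (SE, n = 3 and 3), with an unadjusted p of 0.0168 and an adjusted p of 0.99997 by edgeR. With counts summed over the gene the difference was 0.02. The next members by p had differences of -0.95 ± 0.45 for Mrpl49, 1.201 ± 0.65 for Defb45, 1.26 ± 0.69 for Epb41l3 and -0.94 ± 0.52 for Rpl10, as dcat/dcat minus wt/wt. A contig without a symbol lay between Mrpl49 and Defb45, at 1.21 ± 0.61.

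Library levels did not overlap between genotypes for 8 of 46 members (17.4%), against 7.66% of all contigs tested. Cldn11, Bex4, Gm49425, Gstm7 and Lypla1 were higher in ES dcat/dcat and H2-Eb1, Rpl10 and Klc3 lower. All 46 members passed the filter on the ES libraries alone, but only 7190 of the 11831 contigs did. The shares over all contigs, here and below, thus include contigs that passed only through RS, and are not matched to the members in ES counts. The members' differences had a median of 0.18, against 0.01 over all contigs, and 34 of 46 (73.9%) lay above 0, against 51.3% of all contigs. Both values rested on single libraries. The median was 0.04 without ES dcat/dcat 3, 0.09 without ES dcat/dcat 2 and 0.10 without ES wt/wt 1, with 24, 25 and 26 of 46 members above 0, and it was 0.30 without ES wt/wt 2 and 0.41 without ES dcat/dcat 1. For the 14 somatic marker members the median was 0.17, and it was 0.03 with the replicate number as a block and -0.24 without ES dcat/dcat 3, the library in which Cyp17a1, Fabp3, Ptgds and Cyp11a1 were highest.

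**Figure D5:**
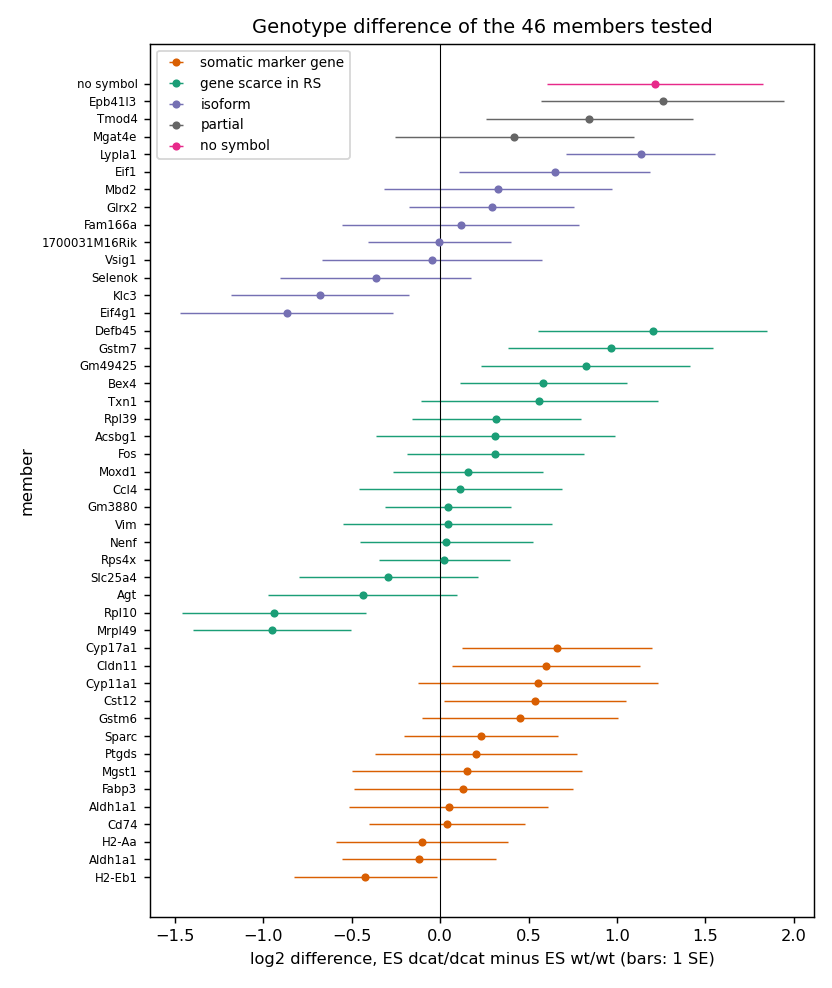
Log2 difference of ES dcat/dcat minus ES wt/wt (x axis, points, with bars of 1 SE of the fit) for the 46 members tested, by class. Differences run from -0.95 for Mrpl49 to 1.26 for Epb41l3, and no member passed the adjusted threshold.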

How the data were processed

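Poly(A) RNA of sorted RS and ES was sequenced by nanopore direct RNA sequencing in 12 libraries, each from 3 mice. The deposited table held whole read counts per contig. Per the study's methods the authors called bases with Guppy, aligned reads to GENCODE vM17 transcripts with minimap2 (2.20-r1061 in the submitters' processing notes, which also name SAMtools, DESeq2 and mm10), and kept contigs with enough reads. Assigning a read to 1 transcript splits counts among isoforms and near-identical copies. The authors' DESeq2 tables, of log2 fold changes and adjusted p-values, were not used. No per-sample column was left without a sample, and no 2 libraries held identical counts.

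Members, gene lists and named genes were chosen with earlier results of these data known. Symbols, lengths and positions came from GENCODE vM21 (GRCm38), in which 11348 of 11517 transcript contigs were found, and promoters from RefSeq (GRCm38.p6). Levels are counts scaled to 1000000 by TMM effective library size (CPM). Pooled ratios carry exact 95% intervals and shares exact binomial ones, both for counting error only. ES dcat/dcat was compared with ES wt/wt by edgeR 4.0.16 (quasi-likelihood, 4 groups in 1 fit, contigs with at least 10 counts in at least 2 libraries of 1 group, Benjamini-Hochberg adjustment). The same fit was also run on simulated counts with 200 changed contigs, and its outcome is not given here. Libraries are pools of mice, so p-values measure the spread between pools. The fit treated RS and ES libraries as independent, although they share mice. A fit of the 6 ES libraries alone, which avoids this, also called no member. Members were aligned to all vM21 transcripts with minimap2 2.31-r1302. Named genes were the 8 members of each class with the most ES counts, the 5 with the smallest p, those beside the limits and every member on a list. Other genes named, within the set or outside it, were chosen after their values were seen. The alternatives were other limits, scalings, filters, DESeq2 1.42.0, gene sums, a replicate block, and leaving out each library.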

Additional observations from a re-analysis of the deposited data

How the results depend on the processing

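The number of members depends on the limits, because raw counts choose them. An RS limit of 10 counts left 20 members, an ES limit of 100 left 6, counts scaled to the mean library total gave 109, and sums by gene symbol gave 30 genes. Leaving out 1 library gave 22 members without ES dcat/dcat 3, 28 without ES wt/wt 2, 30 without ES dcat/dcat 2, 98 without RS dcat/dcat 3 and 138 without RS wt/wt 3. Over all libraries left out in turn there were 9 to 17 in the somatic marker class, 10 to 57 in the class of genes scarce in RS and 3 to 57 in the isoform class, as the fixed limits imply when fewer counts are summed. In each class the lowest number came without ES dcat/dcat 3 (isoforms also without ES wt/wt 2) and the highest without RS wt/wt 3. Other cuts between the isoform classes (20 and 100 RS counts) left these 3 classes within 1.5 times, and so did removing Mgst1 and Gstm6 as markers, an alternative added after seeing the data.

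No member passed an adjusted p of 0.05 under any alternative run. Over all features the replicate block, DESeq2 and sums by gene symbol each called 1. Contigs with unadjusted p under 0.05 were 72 with at least 10 counts in every ES library (which kept 2 members), 142 in a fit of the ES libraries alone, 197 with DESeq2 and 249 to 950 with 1 library left out (535 without ES wt/wt 2 and 950 without ES dcat/dcat 1). Members with unadjusted p under 0.05 were 2 with DESeq2 size factors, without a filter or with ES libraries alone, 0 with DESeq2 or the stricter filter, and 1 to 4 with 1 library left out (4 without ES wt/wt 2 or ES dcat/dcat 1, 2 without ES wt/wt 3). The median difference of the somatic marker members was -0.24 to 0.41 with 1 library left out and turned sign without ES dcat/dcat 3, and that of all members was 0.04 to 0.41. The cause was not tested.

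Per the study's methods a mouse of each genotype entered each sorting session, and whether replicate numbers follow the sessions is not given in the sources used here. Deviations of same-numbered libraries had r = 0.70, 0.38 and 0.47 in RS, and r = 0.45, 0.31 and 0.03 in ES, where the third was too low to take the numbers as pairs. With the replicate block 734 contigs and 6 members had unadjusted p under 0.05, against 356 and 1 without it. No member was called, and the median of the somatic marker members was 0.03 in place of 0.17. Depth limits all values: the members had 50 to 204 ES counts over 6 libraries.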
